A study of Mus musculus with 25 samples.

Results

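Day 5 of follicle culture was set against day 4, with 3 arrays on each day out of 25 arrays in the series, and described across 10688 genes. The arrays were chosen by their labelled day alone, so no measured value entered the choice. Both groups were ovarian follicles of CD-1 mice, taken at 16 days of age as multilayered secondary follicles 150 to 180 µm wide, and held singly in alginate, a gel that keeps the follicle round. The day 5 group had been cultured for 5 days and the day 4 group for 4 days. Follicles of both groups grew in the same medium, with 10 mIU/ml recombinant FSH, 3 mg/ml bovine serum albumin, 1 mg/ml bovine fetuin, insulin and transferrin at 5 µg/ml each, and selenium at 5 ng/ml. Each array carried RNA pooled from 20 to 40 follicles, and the labels speak of 3 independent experiments. Part of the medium was replaced every 2 days, so days 4 and 6 fell on exchange days if counted from the start, and day 5 did not. Whether follicles were frozen before or after an exchange is not given in the sources used here, and culture age and time since an exchange cannot be told apart between day 5 and day 4. Whole follicles were measured, so fewer cells of a type and less RNA per cell cannot be told apart in any result.

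A secondary follicle is an oocyte wrapped in layers of granulosa cells, a basement membrane and an outer coat of theca cells. FSH acts on granulosa cells through cAMP: the cells divide, open an antrum and begin to carry the LH receptor, while anti-Mullerian hormone, a product of preantral granulosa cells, is lost. Early response genes encode transcription factors that are switched on directly by such signals, and the matrix proteins, proteases and secreted antagonists made later reshape the follicle wall and its growth factor supply.

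The 6 arrays had detected probes in similar shares, from 44.2% to 50.5%, median deposited signals of 95.8 to 138, and a median of 38 to 39 beads a probe with a standard error of 4.22% to 5.19% of the signal. Values are given as normalised signal on the log2 scale, and a gene's median standard deviation over 3 arrays was 0.22 on each day. Over all genes, arrays correlated at 0.975 to 0.986 within day 5, at 0.978 to 0.988 within day 4 and at 0.975 to 0.989 between the days, ranges that overlap. The labelled tissue was borne out by its markers: the oocyte growth factor Gdf9 and the granulosa genes Inha and Gja1 were detected on all 6 arrays, and the red blood cell genes Hba-a1, Hbb-b1, Hbb-b2 and Alas2 were above background on none. Repeat numbers were not found to pair the arrays of days 5 and 4, which 3 repeats a day cannot settle. The fit leaves pairing out, and p-values rest on the spread between the labelled repeats.

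Few genes passed the threshold between these adjacent days. Of the 10688 genes tested, 102 passed an adjusted p of 0.05 (0.954%), 58 of them higher at day 5 (0.543%) and 44 lower (0.412%), in a limma fit over all 20 follicle arrays of the series with Benjamini-Hochberg adjustment. At an unadjusted p of 0.05 the number was 1162 (10.9%). The arrays of both days did not overlap for 57 of the 58 genes that rose and 43 of the 44 that fell, against 13.7% of all genes tested (6.68% higher and 6.97% lower). The changes were modest, with a median absolute log2 change of 1.01 among the genes that rose and 0.97 among those that fell, and 51 genes (0.477%) had one of at least 1. Of the genes that rose, 12 were above background on no day 4 array, and of those that fell, 9 were above background on no day 5 array. Folds for these are given as lower bounds against the lowest detected signal. The bounds hold only for the signals as normalised here and leave out the spread between arrays. Changes in the authors' deposited log2 values were 0.51 for Aqp12, 0.40 for Insyn2b and 0.39 for Sstr1. For Arl5a, Notum and Frzb they were 0.29, 0.25 and 0.14, each of these a smaller fold than its bound below.

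**Figure D1:**
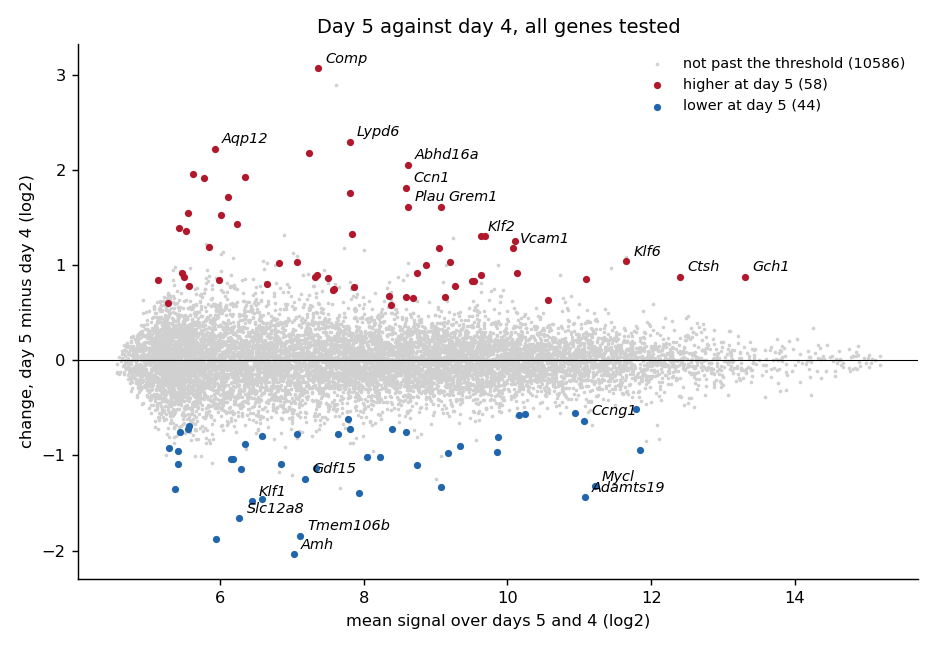
Each point is 1 of the 10688 genes tested, with its mean signal over days 5 and 4 (log2) on the x axis and its change, day 5 minus day 4 (log2), on the y axis; red marks the 58 genes higher at day 5 and blue the 44 lower. Comp stands highest at 3.07 and Amh lowest at -2.04, and most genes lie close to 0, with a median of -0.0037.

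The count of calls for day 5 against day 4 moved with single arrays: it was 63 without day 5 repeat 1, 59 without day 5 repeat 2 and 51 without day 4 repeat 1. Leaving out any 1 of the 6 arrays in turn, 40 genes kept their call each time, 23 higher and 17 lower at day 5, while 62 lost it at least once. Fitted on the 6 arrays of days 5 and 4 alone, with fewer arrays to estimate the spread, 17 of the 102 passed: Comp, Lypd6, Abhd16a, Sstr1, Egr4, Ccn1, Grem1, Arl5a, Prcp and Klf2 among those higher, and Tmem106b, Slc12a8, Adamts19, Btn1a1, Mpg, AU018829 and LOC100044172 among those lower. Each other gene described as changed did not pass in that smaller fit. In the authors' deposited log2 values all 93 called genes that have a value moved in the same direction, but for 70 of them the change was more than 1.5 times smaller.

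Secreted and matrix proteins were among the largest rises. Comp, a thrombospondin-family glycoprotein of the extracellular matrix known from cartilage, measured 9.51, 9.24 and 7.96 on the day 5 arrays, against 6.21, 5.99 and 5.3 on the day 4 arrays. All day 5 arrays lay well above all day 4 arrays, and the third day 5 array was the lowest of its day. The log2 change was 3.07 (SE 0.29, adjusted p 1.09e-05 in the limma fit), or 8.4-fold higher, and 1.20 in the authors' values. Grem1, a secreted antagonist of bone morphogenetic proteins made by granulosa cells, measured 9.88, 9.91 and 9.85 at day 5, against 8.56, 8.37 and 7.87 at day 4. Its day 5 arrays were nearly identical and stood clear of every day 4 array, at a log2 change of 1.61 (SE 0.20, adjusted p 0.000161), or 3.06-fold. Plau, the urokinase-type plasminogen activator, measured 9.67, 9.73 and 8.86 at day 5, against 7.23, 7.80 and 8.38 at day 4. The days did not overlap, although the lowest day 5 and the highest day 4 array were close, and the fold was 3.06 (adjusted p 0.00261). Ccn1, a matricellular protein and a target of the YAP coactivator, measured 9.76, 9.58 and 9.16 at day 5, against 7.37, 7.47 and 8.22 at day 4. Its log2 change was 1.81 (SE 0.31, adjusted p 0.00429), and its 2 other probes were also higher at day 5, by 1.95 and 1.13. Ccn2, the related connective tissue growth factor, averaged 12.19 ± 0.13 at day 5 and 11.11 ± 0.45 at day 4 (SD, n = 3 each) and did not pass (adjusted p 0.157).

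Few other members of the lists that hold these genes passed. For comparison, 0.543% of all genes tested were called higher and 0.412% lower, and 49.4% had a change above 0 and 50.6% one below. Comp was 1 of 19 fibrillar collagen and stromal matrix genes tested, and it alone passed; 17 of the 19 had a change below 0 and the median was -0.22, against -0.0037 over all genes tested. Among the 17 basement membrane genes none passed in either direction, 0 also had an unadjusted p under 0.05, and the median was -0.21. Plau was the 1 of 16 matrix proteases and inhibitors that passed, Grem1 the 1 of 12 BMP ligands, antagonists and targets, and Ccn1 the 1 of 8 YAP targets. Chosen after their values were seen, Mmp9, a gelatinase, had a log2 change of 1.05 (SE 0.28, adjusted p 0.092), and Bmp7, a BMP ligand, one of -0.61 (adjusted p 0.205); both missed the threshold.

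Transcription factors of the early response type were a second group among the rises. Klf2, a zinc-finger factor, measured 10.23, 10.30 and 10.31 at day 5, against 8.95, 8.82 and 9.15 at day 4. The arrays of each day were tight and did not overlap, and the fold was 2.47 (log2 change 1.31, SE 0.15, adjusted p 6.35e-05). Egr4, a zinc-finger factor of the early growth response family, measured 7.49, 7.15 and 7.29 at day 5, against 5.2, 5.35 and 5.61 at day 4, where it was above background on 1 array. All day 5 arrays were higher, at a log2 change of 1.93 (SE 0.40, adjusted p 0.0189). Atf3, a stress-responsive bZIP factor, measured 7.45, 7.19 and 6.23 at day 5, against 5.2, 5.39 and 5.97 at day 4. The third day 5 array came close to the highest day 4 array, and the log2 change was 1.44 (SE 0.31, adjusted p 0.0254). Klf6, a further zinc-finger factor, measured 12.08, 12.29 and 12.16 at day 5, against 11.02, 11.29 and 11.09 at day 4. Its days did not overlap, with an adjusted p of 0.0365 for a log2 change of 1.04, which its other probe gave as 1.43. Klf2 alone of these kept its call without any 1 array. Without day 4 repeat 1 or 2, or day 5 repeat 1 or 2, adjusted p was 0.0578 to 0.101 for Egr4 and 0.0836 to 0.157 for Atf3, and for Klf6 it was 0.0552 to 0.138 without any 1 of the 6 arrays. In the authors' values adjusted p was 0.255 for Egr4 and 0.186 for Atf3.

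Of the 19 immediate early genes tested, Atf3, Klf2 and Klf6 rose and none fell, 16 had a change above 0, and the list median was 0.21. Over all genes tested 0.543% were called higher, 49.4% had a change above 0 and the median was -0.0037. Egr4 is not on that list. Fos, an AP-1 subunit, averaged 12.20 ± 0.13 at day 5 and 12.58 ± 0.27 at day 4 (SD, n = 3 each; adjusted p 0.546), and Egr1 13.74 ± 0.08 at day 5 and 13.60 ± 0.07 at day 4 (adjusted p 0.788). Egr2, Fosb and Jun were chosen after their values were seen: Egr2 had a log2 change of 1.00, Fosb of 0.90 and Jun of 0.67, each short of the threshold. Bcl6, a transcriptional repressor chosen after its values were seen, measured 9.63, 9.82 and 9.69 at day 5, against 8.35, 8.99 and 8.68 at day 4, with no overlap and a fold of 2.05 (adjusted p 0.00261).

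The promoters of the early genes that rose are shown from RefSeq (GRCm38.p6), 250 bases before to 50 bases after the annotated gene start, with capitals on the short cAMP response motif TGACG or its reverse complement. The 4 that hold it are given 5′ to 3′ on the gene's strand: Atf3 at chr1:191183284-191183583, minus strand; Egr4 at chr6:85513540-85513839, minus strand; Ccn1 at chr3:145649936-145650235, minus strand; Klf2 at chr8:72318812-72319111, plus strand.
Atf3: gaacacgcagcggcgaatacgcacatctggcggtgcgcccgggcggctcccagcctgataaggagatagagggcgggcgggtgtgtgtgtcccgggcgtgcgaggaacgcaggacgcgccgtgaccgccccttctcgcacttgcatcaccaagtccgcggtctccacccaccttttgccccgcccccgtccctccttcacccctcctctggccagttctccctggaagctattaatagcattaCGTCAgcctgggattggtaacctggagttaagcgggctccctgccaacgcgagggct
Egr4: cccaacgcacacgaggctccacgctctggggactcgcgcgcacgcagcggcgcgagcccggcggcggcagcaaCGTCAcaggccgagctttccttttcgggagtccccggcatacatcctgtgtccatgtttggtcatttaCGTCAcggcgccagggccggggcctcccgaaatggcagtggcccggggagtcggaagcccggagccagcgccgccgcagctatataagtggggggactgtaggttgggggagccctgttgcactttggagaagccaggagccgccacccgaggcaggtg
Ccn1: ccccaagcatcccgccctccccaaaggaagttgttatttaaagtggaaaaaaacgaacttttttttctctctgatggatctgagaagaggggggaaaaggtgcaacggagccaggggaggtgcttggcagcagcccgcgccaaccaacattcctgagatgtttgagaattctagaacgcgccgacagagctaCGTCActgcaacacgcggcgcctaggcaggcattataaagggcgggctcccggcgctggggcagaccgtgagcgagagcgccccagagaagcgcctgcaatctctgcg
Klf2: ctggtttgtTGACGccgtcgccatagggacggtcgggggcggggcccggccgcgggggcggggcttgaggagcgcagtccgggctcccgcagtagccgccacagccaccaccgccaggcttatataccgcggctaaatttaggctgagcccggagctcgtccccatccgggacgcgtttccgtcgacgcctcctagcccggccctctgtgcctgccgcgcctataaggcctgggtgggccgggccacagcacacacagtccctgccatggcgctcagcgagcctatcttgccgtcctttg
Egr4 holds the short motif at 2 positions, beginning at bases -177 and -109 relative to the start. Atf3 holds it at -7, Ccn1 at -58 and Klf2 at -241. Klf6 has none in its window. Neither the full palindrome TGACGTCA, which contains the short motif on both strands, nor a CArG box was found in any of the 5 windows. Searched on both strands, TGACG occurs in 20.6% of the 22862 promoters of genes with a single entry, in 31.5% of the 6445 promoters matched to genes tested, in 15 of the 35 matched among the genes that rose and in 7 of the 23 matched among those that fell. A match of these letters is a description of the sequence only.

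Receptors and membrane proteins formed a further part of the rises, and a receptor ligand is given with them. Sstr1, an inhibitory G protein-coupled somatostatin receptor, measured 6.17, 6.73 and 6.91 at day 5, against 4.60, 4.80 and 4.54 at day 4. It was above background on every day 5 array and on no day 4 array, and was at least 2.21-fold higher (adjusted p 0.00197); in the authors' values adjusted p was 0.258. Lhcgr, the LH receptor that granulosa cells gain as the follicle becomes antral, measured 9.77, 9.85 and 9.38 at day 5, against 8.78, 9.07 and 8.81 at day 4. The days did not overlap, and the fold was 1.72 (log2 change 0.78, SE 0.15, adjusted p 0.0142), with 0.91 from its other probe. Without day 4 repeat 1 or 3, or day 5 repeat 1 or 2, adjusted p for Lhcgr lay between 0.0512 and 0.0981. Lhcgr was the 1 of 15 antral granulosa and oestradiol genes to pass. The next genes, Fshr and Cyp19a1, were chosen after their values were seen. The FSH receptor Fshr averaged 11.01 at day 5 and 10.89 at day 4 (adjusted p 0.892), and aromatase, Cyp19a1, had a log2 change of 0.13 (adjusted p 0.931). Vcam1, an adhesion molecule, and Angpt2, a ligand of the endothelial Tie2 receptor, were chosen after their values were seen. Vcam1 measured 10.80, 10.81 and 10.40 at day 5, against 9.44, 9.81 and 9.21 at day 4, a fold of 2.27 (adjusted p 0.017). Angpt2 measured 11.60, 11.64 and 11.31 at day 5, against 10.37, 10.71 and 10.90 at day 4, a fold of 1.81 (adjusted p 0.0255). The other probe of Angpt2, above background on all 6 arrays, gave a smaller log2 change of 0.45 (limma, unadjusted p 0.138). Both lost the call without single arrays: Vcam1 without day 4 repeat 1 or 3 or day 5 repeat 1 or 2 (adjusted p 0.079 to 0.0963), and Angpt2 without day 4 repeat 1 or 2 or day 5 repeat 1 or 2 (adjusted p 0.0589 to 0.147).

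Several genes of Wnt signalling were among the rises; they were grouped after their values were seen, and no list of the pathway was counted. Lypd6, a membrane-anchored protein known to enhance Wnt signalling in zebrafish, measured 9.10, 8.81 and 8.95 at day 5, against 6.3, 7.04 and 6.64 at day 4. Every day 5 array was far above every day 4 array, at a log2 change of 2.3 (SE 0.24, adjusted p 2.58e-05), or 4.92-fold. Fzd5, a Wnt receptor, measured 8.86, 9.01 and 8.92 at day 5, against 8.3, 8.31 and 8.17 at day 4, a fold of 1.59 (adjusted p 0.00743), with adjusted p 0.0514 without day 5 repeat 2. Notum, a secreted esterase that inactivates Wnt ligands, was above background on 2 day 5 arrays and on no day 4 array, and was at least 1.58-fold higher (adjusted p 0.0037). Frzb, a secreted Wnt antagonist, was above background on every day 5 array and no day 4 array, and was at least 1.39-fold higher (adjusted p 0.0373). Frzb lost the call without any 1 of the 3 day 4 arrays or day 5 repeat 1 or 2 (adjusted p 0.0799 to 0.2). In the authors' values its adjusted p was 0.221 (limma).

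Several lysosomal genes rose. Neu1, the lysosomal sialidase, measured 10.18, 10.04 and 10.02 at day 5, against 9.08, 9.24 and 9.23 at day 4. Both days were tight and apart, at a fold of 1.86 (log2 change 0.90, SE 0.13, adjusted p 0.000645). Gpnmb, a glycoprotein of lysosomal and melanosomal membranes, measured 10.55, 10.99 and 10.66 at day 5, against 8.97, 9.08 and 10.38 at day 4. The third day 4 array lay near the day 5 arrays, the fold was 2.39 (adjusted p 0.0406), and the call was lost without any 1 of the 6 arrays except day 4 repeat 3 (adjusted p 0.0714 to 0.213). Ctsh, the protease cathepsin H, measured 12.85, 13.02 and 12.64 at day 5, against 11.93, 11.71 and 12.24 at day 4, a fold of 1.84 (adjusted p 0.0142), and lost the call without day 4 repeat 1 or 2 or day 5 repeat 1 or 2 (adjusted p 0.0609 to 0.0947). These were the 3 of 25 lysosome genes that passed; 22 of the 25 had a change above 0 and the median was 0.20. The shares over all genes tested were 0.543% called higher and 49.4% above 0. Ctsb, cathepsin B, averaged 12.92 ± 0.27 at day 5 and 12.53 ± 0.08 at day 4 (SD, n = 3 each; adjusted p 0.431). Prcp, a lysosomal carboxypeptidase not on the lysosome list, measured 8.4, 8.4 and 8.68 at day 5, against 6.95, 7.27 and 7.28 at day 4. Its fold was 2.52 (adjusted p 0.00074), with no overlap. Tmem106b, a protein of the lysosomal membrane that is also not on the list, passed in the other direction and is described below.

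Macrophages are rich in lysosomes. Summed over the 10 macrophage markers tested, the linear signal was 2767 to 2968 on the day 5 arrays, against 1407 to 2604 on the day 4 arrays. The lysozymes Lyz1 and Lyz2 made up 88.5% to 89.5% of that sum at day 5 and 79.9% to 88.2% at day 4; the other 8 markers summed to 313 to 335 at day 5, against 282 to 306 at day 4. The list median was 0.088, with 6 members above 0 and 4 below. None of the 10 passed in either direction; 2 had an unadjusted p under 0.05, both higher, and Adgre1, C1qb, C1qc and Mrc1 were not above background on either day. Lyz1, a lysozyme, averaged 11.10 ± 0.12 at day 5 and 10.44 ± 0.51 at day 4 (SD, n = 3 each; adjusted p 0.222). Lgals3, the lectin galectin-3 of macrophages and many epithelia, measured 10.56, 10.39 and 10.07 at day 5, against 8.67, 8.85 and 9.58 at day 4, a fold of 2.47 (adjusted p 0.00609; 0.0557 without day 4 repeat 1). The part of these cells in the lysosomal changes was not tested.

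Enzymes, trafficking proteins and a water channel were also among the largest rises. Abhd16a, a lipase that makes lysophosphatidylserine, measured 9.76, 9.52 and 9.66 at day 5, against 7.19, 7.59 and 7.99 at day 4. It was 4.16-fold higher (log2 change 2.06, SE 0.17) and, with Tmem106b, had the lowest adjusted p, 1.63e-06. Atg3, the enzyme that attaches LC3 to membrane lipid in autophagy, measured 8.32, 8.76 and 7.92 at day 5, against 6.39, 5.06 and 7.01 at day 4, and was 4.53-fold higher (adjusted p 0.00122). The day 4 arrays of Atg3 were widely spread, with 2 of 3 above background. Aqp12, a water channel known from the pancreas, measured 7.16, 7.88 and 6.08 at day 5, against 4.76, 4.82 and 4.87 at day 4. Aqp12 was above background on every day 5 array and on no day 4 array, and was at least 2.98-fold higher (adjusted p 0.000364). Insyn2b was above background on all day 5 and no day 4 arrays, and was at least 2.43-fold higher (adjusted p 0.00117; 0.114 in the authors' values). Arl5a, a small GTPase of the Golgi, measured 6.21, 6.06 and 6.71 at day 5, against 4.96, 4.73 and 4.63 at day 4. No day 4 array was above background, and Arl5a was at least 1.82-fold higher (adjusted p 0.000152). Gch1, the first enzyme of tetrahydrobiopterin synthesis, was chosen after its values were seen and measured 13.84, 13.73 and 13.65 at day 5, against 12.73, 13.07 and 12.78 at day 4. Its fold was 1.84 (adjusted p 0.00653; 0.0509 without day 4 repeat 1), and its other probe gave a log2 change of 1.13. Sectm1b, LOC547343 and ENSMUSG00000068790, chosen after their values were seen, also passed, with log2 changes of 1.72, 1.53 and 1.75. The arrays of Sectm1b overlapped between the days. Sectm1b lost the call without day 4 repeat 1 or 2 or day 5 repeat 2 or 3 (limma, adjusted p 0.0701 to 0.227). In the authors' values its adjusted p was 0.255. ENSMUSG00000068790 lost the call without day 4 repeat 1 or 2 or day 5 repeat 2 (adjusted p 0.0744 to 0.102).

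**Figure D2:**
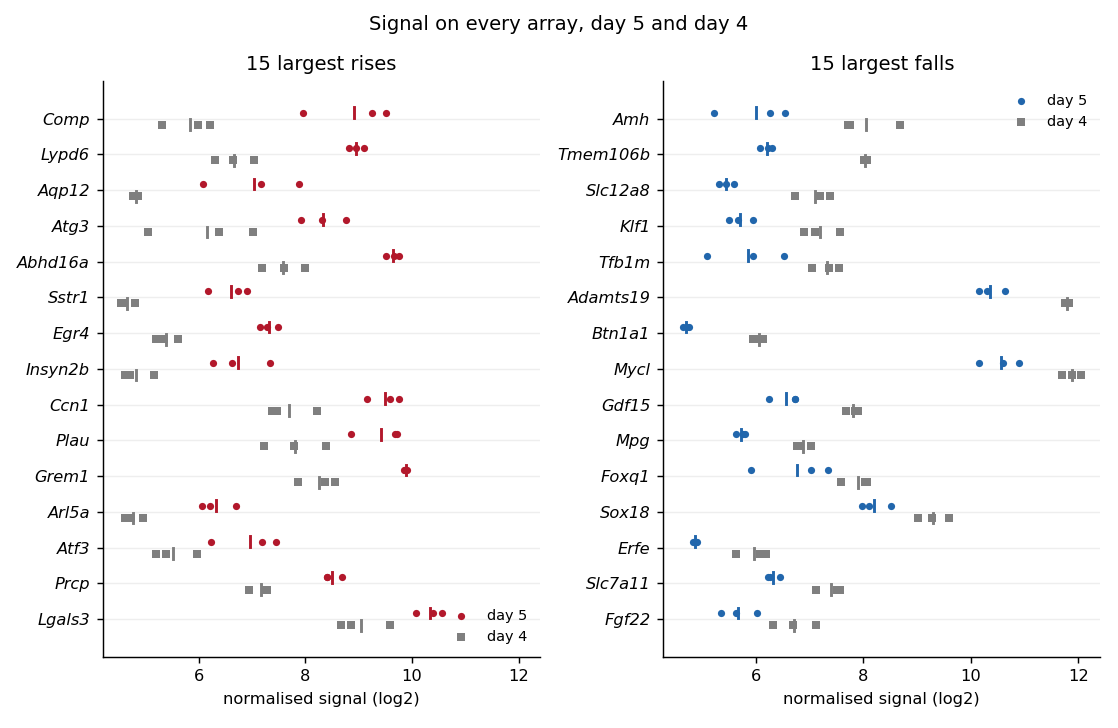
Normalised signal (log2, x axis) on every array for the 15 largest rises (left) and the 15 largest falls (right) that passed without overlap; circles are the 3 day 5 arrays, squares the 3 day 4 arrays and vertical bars their means. The circles lie on one side of the squares in each row, as the choice of genes required, and the gap is widest for Comp, 8.91 at day 5 and 5.84 at day 4, among the rises and for Amh, 6.01 at day 5 and 8.05 at day 4, among the falls.

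Amh showed the largest log2 fall, and growth factors were among the smaller ones. Amh, the anti-Mullerian hormone of preantral and small antral granulosa cells, measured 5.23, 6.27 and 6.54 at day 5, against 7.72, 7.75 and 8.69 at day 4. Every day 5 array was below every day 4 array, and at day 5 Amh was above background on 2 of 3 arrays. The log2 change was -2.04 (SE 0.33, adjusted p 0.00255), or 4.11-fold lower; in the authors' values it was -0.68 (adjusted p 0.0848). Amh was the 1 of 9 preantral granulosa genes to pass. Amhr2, its receptor, averaged 12.05 ± 0.06 at day 5 and 12.10 ± 0.10 at day 4 (SD, n = 3 each; adjusted p 0.974), and the monoamine transporter Slc18a2, a further gene of that list chosen after its values were seen, had a log2 change of -1.25 (SE 0.34, adjusted p 0.108). Gdf15, a stress-induced member of the TGF-beta family, measured 6.25, 6.72 and 6.73 at day 5, against 7.68, 7.85 and 7.90 at day 4, and was 2.37-fold lower (adjusted p 0.00924; 0.0775 without day 5 repeat 1). Fgf22, a fibroblast growth factor, measured 5.63, 5.35 and 6.03 at day 5, against 6.69, 6.31 and 7.11 at day 4, and was 2.05-fold lower (adjusted p 0.0406). Fgf22 was above background on 1 day 5 array and lost the call without day 4 repeat 1 or 3 or day 5 repeat 1 or 2 (adjusted p 0.121 to 0.198).

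Regulators and a protease fell with them. Adamts19, a secreted metalloprotease, measured 10.15, 10.29 and 10.63 at day 5, against 11.76, 11.82 and 11.81 at day 4. The day 4 arrays were nearly identical and the day 5 arrays all lower, at a log2 change of -1.44 (SE 0.15, adjusted p 3.54e-05), or 2.71-fold. Mycl, a member of the MYC family, measured 10.15, 10.60 and 10.90 at day 5, against 12.04, 11.89 and 11.70 at day 4, and was 2.51-fold lower (adjusted p 0.000618). Foxq1, a forkhead factor, measured 5.91, 7.03 and 7.35 at day 5, against 8.07, 8.04 and 7.59 at day 4, and was 2.2-fold lower (adjusted p 0.0479). The third arrays of both days came close to each other, and Foxq1 lost the call without day 4 repeat 1 or 2 or day 5 repeat 1 or 2 (adjusted p 0.0781 to 0.2). Ccng1, cyclin G1, a p53 target, averaged 10.75 ± 0.05 at day 5 and 11.38 ± 0.09 at day 4 (SD, n = 3 each). It was 1.55-fold lower (adjusted p 0.0241), its 2 other probes gave log2 changes of -0.74 and -0.80, and it lost the call without day 4 repeat 1 or 2 or day 5 repeat 1 or 2 (adjusted p 0.0752 to 0.114). It was the 1 of 14 p53 targets to pass; Mdm2 averaged 10.99 ± 0.13 at day 5 and 11.09 ± 0.11 at day 4, with overlap.

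A pair of vascular genes was lower at day 5, while Angpt2, described above, was higher by a log2 change of 0.85. Sox18, a transcription factor of endothelial cells, measured 8.11, 7.96 and 8.51 at day 5, against 9.27, 9.02 and 9.59 at day 4. It was 2.14-fold lower (log2 change -1.10, SE 0.23, adjusted p 0.0217), and without day 4 repeat 1 or 3 or day 5 repeat 1 or 2 adjusted p was 0.0809 to 0.124. Pdgfb, a growth factor that endothelial cells secrete, was chosen after its values were seen and measured 7.85, 8.26 and 8.00 at day 5, against 8.80, 8.41 and 9.06 at day 4. It was 1.65-fold lower (adjusted p 0.0448) and lost the call without day 4 repeat 1 or 3 or day 5 repeat 1 or 3 (adjusted p 0.0984 to 0.207). The 12 endothelial markers tested had a median change of -0.27, 10 of them below 0, against 50.6% of all genes tested; none passed in the limma fit, and 6 had an unadjusted p under 0.05, all lower, against 591 of 10688 genes (5.53%) lower at that p. Their summed linear signal was 1623 to 1787 on the day 5 arrays, against 1875 to 2595 on the day 4 arrays, with Tie1 not above background and Esam averaging 8.27 ± 0.23 at day 5 and 8.66 ± 0.28 at day 4 (SD, n = 3 each; adjusted p 0.381). The part of endothelial cell number in the levels of Sox18 and Pdgfb was not tested.

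A pair of glutathione and amino acid genes changed in opposite directions. Chac1, an enzyme that degrades glutathione and a target of the amino acid response factor ATF4, measured 9.52, 9.65 and 9.72 at day 5, against 8.15, 8.61 and 8.59 at day 4, a fold of 2.27 (adjusted p 0.000698). Slc7a11, the cystine importer that feeds glutathione synthesis, measured 6.45, 6.26 and 6.22 at day 5, against 7.57, 7.11 and 7.51 at day 4, and was 2.12-fold lower (adjusted p 0.00122). Neither gene's arrays overlapped between days. These were the only 2 of 14 amino acid response genes to pass, with a list median of -0.028; Atf4 averaged 12.77 ± 0.12 at day 5 and 12.85 ± 0.24 at day 4, and asparagine synthetase, Asns, 11.88 ± 0.10 at day 5 and 11.78 ± 0.12 at day 4 (SD, n = 3 each). Of 22 glutathione and redox genes none passed, and 1, Gpx3, an extracellular glutathione peroxidase chosen after its values were seen, had an unadjusted p under 0.05, with a log2 change of 1.02 (adjusted p 0.0667).

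Several falls ended at or near background. Slc12a8, of the cation-chloride cotransporter family, measured 5.58, 5.44 and 5.3 at day 5, against 7.38, 7.19 and 6.74 at day 4. It was above background on no day 5 array and was at least 2.95-fold lower (adjusted p 0.000364). Btn1a1, butyrophilin of the milk fat membrane, measured 4.74, 4.71 and 4.64 at day 5, against 6.09, 5.94 and 6.13 at day 4, and was at least 1.43-fold lower (adjusted p 7.04e-05). Erfe, erythroferrone, a secreted suppressor of hepcidin, was above background on all day 4 and no day 5 arrays, and was at least 1.34-fold lower (adjusted p 0.00117). Mpg, a DNA glycosylase of base excision repair, measured 5.79, 5.63 and 5.76 at day 5, against 6.82, 7.02 and 6.77 at day 4, and was 2.21-fold lower (adjusted p 0.000161), with -0.84 on the log2 scale from its other probe. Tfb1m, a methyltransferase of mitochondrial ribosomal RNA, measured 6.53, 5.1 and 5.94 at day 5, against 7.55, 7.36 and 7.04 at day 4, and was 2.76-fold lower (adjusted p 0.0217). Tfb1m was above background on 2 of 3 day 5 arrays and lost the call without day 4 repeat 1 or 2 or day 5 repeat 2 (adjusted p 0.0688 to 0.137).

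Probes of the same gene gave a further check of the calls. Among the genes that rose, 10 had other probes, 15 in all, of which 14 had the same sign and 10 also an unadjusted p under 0.05. Among those that fell, 8 had 10 other probes, of which 7 had the same sign and 4 also an unadjusted p under 0.05. These counts include dim probes: same-sign probes of Arl5a, Elmo1 and Chdh were above background on only 1 or 2 of the 6 arrays. Such dim probes bear on the calls in neither direction. Counting only other probes above background on all 6 arrays, all 6 of those for genes that rose and all 6 for genes that fell had the same sign. The probes of Rpl27a and Slc25a15 with the opposite sign were dim, above background on 1 and 3 of the 6 arrays, and do not bear on those calls. For Slc47a1 the other probe gave a log2 change of 0.21, against -0.70 from the probe used. That other probe was above background on 4 of the 6 arrays, at a mean of 5.47 against 5.57 for the probe used. The call of Slc47a1 was thus not borne out by its other probe. Both further probes of Tmem14c, detected on all 6 arrays, gave -0.22 and -0.17 where the probe used gave -0.94. Elmo1, Chdh, Rpl27a, Slc25a15, Slc47a1 and Tmem14c were chosen after their values were seen.

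A handful of genes stood apart at day 5 from both neighbouring days. For day 5 against the mean of days 4 and 6, 28 genes passed (0.262%), 17 higher (0.159%) and 11 lower (0.103%). This comparison shares the day 5 and day 4 arrays with day 5 against day 4, so only its own values are given. The count was 17 without day 5 repeat 1 and 16 without day 5 repeat 2. Lypd6 averaged 6.66 at day 4, 8.96 at day 5 and 7.38 at day 6, and lay 1.94 above the mean of days 4 and 6 on the log2 scale (SE 0.21, adjusted p 3.96e-05). Prcp lay 1.21 above that mean (adjusted p 0.000882). Aqp12 was above background on no array of days 4 and 6, and at day 5 was at least 2.99-fold above their mean (adjusted p 8.16e-05). Arl5a, also above background on no array of those days, was at least 1.82-fold above it (adjusted p 3.96e-05). Chac1 averaged 8.45 at day 4, 9.63 at day 5 and 7.79 at day 6, 1.51 above the mean (adjusted p 1.56e-05).

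Other genes were lower at day 5 than on both neighbouring days. Tmem106b, a protein of the lysosomal membrane, measured 6.3, 6.07 and 6.22 at day 5, against 8.06, 8.05 and 8.00 at day 4, and was 3.59-fold lower (adjusted p 1.63e-06). At day 6 it averaged 7.78, so that day 5 differed from the mean of days 4 and 6 by -1.71 (SE 0.13, adjusted p 1e-06), and all day 5 arrays were apart from all arrays of both days. Klf1, a factor known from red cell precursors, measured 5.49, 5.66 and 5.95 at day 5, against 7.09, 7.56 and 6.90 at day 4, averaged 7.72 at day 6, was above background on 2 of 3 day 5 arrays, and differed by -1.75 at day 5 from the mean of days 4 and 6 (adjusted p 9.64e-05). Slc12a8, above background on no day 5 array, was at least 1.9-fold below that mean (adjusted p 0.0176). Its day 6 mean was 5.84, against 5.44 at day 5, and that step did not pass (limma, adjusted p 0.418). The difference of Slc12a8 from the mean of days 4 and 6 thus rests largely on its day 4 level. Cops8, a subunit of the COP9 signalosome, averaged 10.34 ± 0.08 at day 4, 9.38 ± 0.22 at day 5 and 9.95 at day 6 (SD, n = 3 each), and differed by -0.76 from the mean of days 4 and 6 (adjusted p 0.00813). Bdh2, a dehydrogenase, had a difference of -1.13 and did not pass (adjusted p 0.109). Each of these genes was read by the probe with the highest mean. Arl5a has 2 further probes, above background on 1 and 2 of the 6 arrays of days 5 and 4, too few for a measured change.

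The next step, day 6 against day 5, called 143 genes (1.34%), 76 higher (0.711%) and 67 lower (0.627%), from arrays that include those of day 5. The count was 66 without day 5 repeat 1, 52 without day 5 repeat 3, 218 without day 6 repeat 2 and 75 without day 6 repeat 3. Comp reached 11.00 at day 6, a further log2 change of 2.09 (SE 0.29, adjusted p 0.0012), and Grem1 10.85, a further 0.97 (adjusted p 0.0195). Vcam1 reached 11.98, a further 1.31 (adjusted p 0.0081). Mycl averaged 9.36 at day 6, a change of -1.19 (adjusted p 0.0028), while Amh, above background on 1 of 3 day 6 arrays, did not pass (adjusted p 0.156). Klf2, Ccn1, Plau, Abhd16a, Neu1 and Slc7a11 did not pass in that step.

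**Figure D3:**
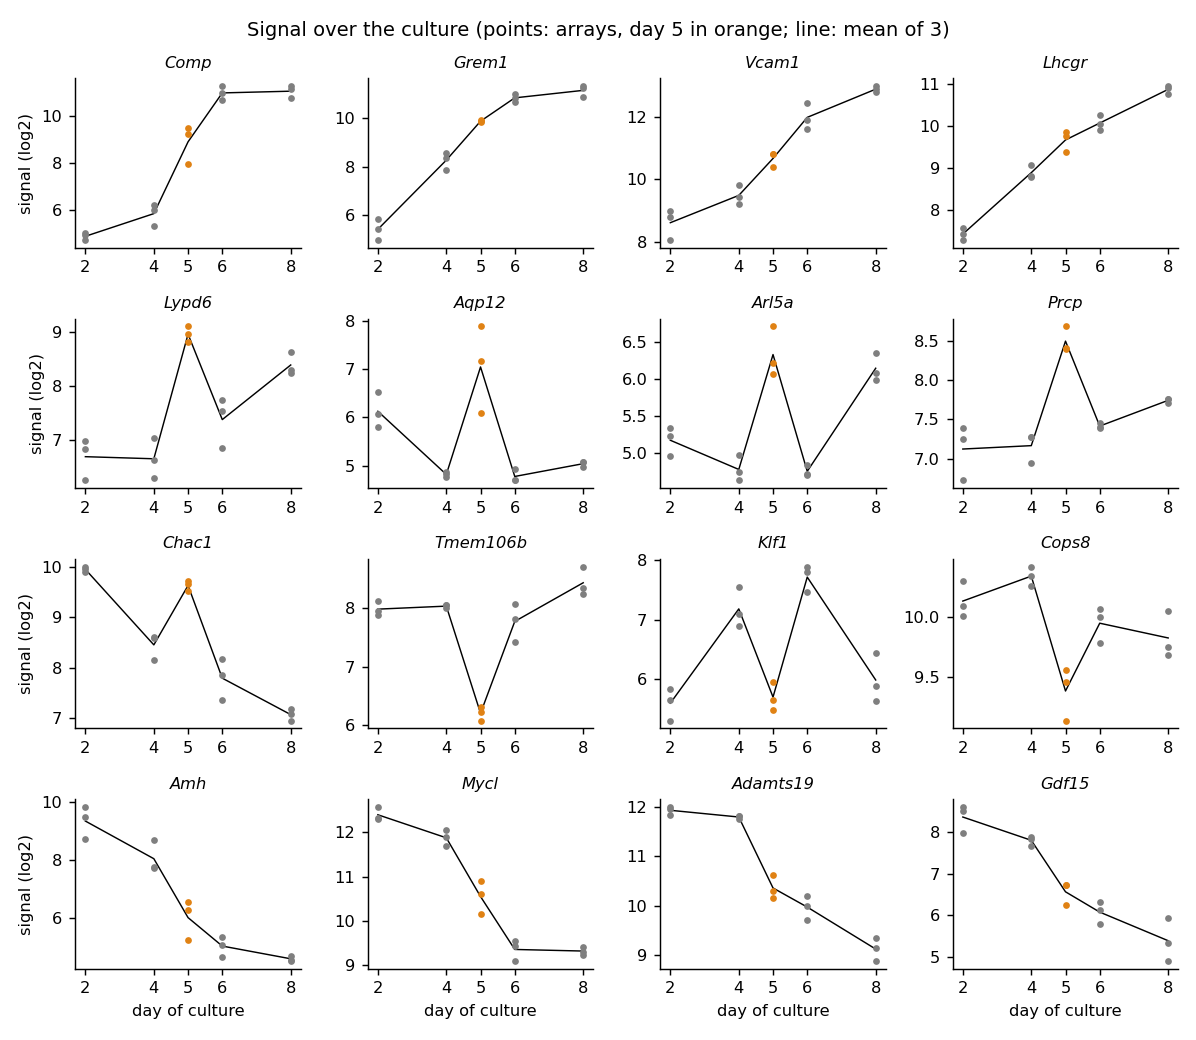
Normalised signal (log2, y axis) of 16 genes over days 2, 4, 5, 6 and 8 of culture (x axis); points are single arrays, 3 a day, those of day 5 in orange, and the line joins the means. The top row climbs over the culture, as Comp does, above background on no day 2 array and at 11.07 at day 8; Lypd6, Aqp12, Arl5a, Prcp and Chac1 stand above days 4 and 6 at day 5; Tmem106b, Klf1 and Cops8 dip there; and the bottom row declines, as Amh does, at 9.35 at day 2 and above background on no day 8 array.

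Days 6 and 8 against day 2, a comparison added after the data were seen, shares none of the 6 arrays. It does share the normalization, the filter and choice of probes, and the estimate of spread. It called 2814 genes (26.3%), 1267 higher (11.9%) and 1547 lower (14.5%). Of the 58 genes higher at day 5 than at day 4, 38 (65.5%) were higher at days 6 and 8 and 4 (6.90%) lower. Of the 44 genes lower at day 5, 33 (75.0%) were lower at days 6 and 8 and 3 (6.82%) higher. Grem1 was 5.61 higher at days 6 and 8 on the log2 scale (SE 0.17, adjusted p 6.88e-14) and had been above background on 2 of 3 day 2 arrays. Comp, above background on no day 2 array, was at least 50.7-fold higher (adjusted p 4.66e-12). Amh was above background on 1 of the 6 arrays of days 6 and 8, and was at least 14.9-fold lower with undetected arrays set to the lowest detected signal (adjusted p 1.44e-09). The log2 change was -3.06 for Mycl (adjusted p 1.79e-10) and -2.64 for Gdf15 (adjusted p 1.55e-08), which was above background on 1 of 3 day 8 arrays. Aqp12 and Chac1, higher at day 5 than at day 4, were lower at days 6 and 8 than at day 2: Aqp12, above background on none of those 6 arrays, at least 1.6-fold, and Chac1 by a log2 change of -2.52. Klf1, above background on 2 of 3 day 2 arrays, ran the other way, at 1.25.

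Several gene lists held no called gene, where 0.954% of all genes tested were called, too low a share for this to set lists of these sizes apart. No member passed among the 13 theca and androgen synthesis genes, the 9 genes of cumulus expansion and ovulation, the 44 respiratory chain genes, the 27 proteasome genes, the 24 genes of glycolysis and hypoxia, the 13 heat shock genes, the 13 interferon response genes or the 9 retinoid genes, in the limma fit. At an unadjusted p of 0.05, which 10.9% of all genes tested passed, the number was 0 for the respiratory chain, 1 for the proteasome, 2 each for glycolysis and hypoxia and for interferon response, 3 each for ovulation and for heat shock, and 4 each for theca and for retinoid genes. Cyp17a1, the theca enzyme of androgen synthesis, averaged 11.62 ± 0.32 at day 5 and 11.47 ± 0.19 at day 4 (SD, n = 3 each), and Hsd17b1, of oestradiol synthesis, 14.36 ± 0.18 at day 5 and 14.35 ± 0.20 at day 4.

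Among fatty acid genes none passed in the limma fit. Of 14 genes of fatty acid synthesis and desaturation 12 had a change above 0, with a median of 0.26. An unadjusted p under 0.05 was reached by 5 of them, all higher. Over all genes tested, 49.4% had a change above 0, 5.34% were higher at that p, and the median was -0.0037. Chosen after its values were seen, Scd1, a desaturase of that list, had a log2 change of 0.76 (adjusted p 0.204). Stard4, a sterol carrier that is not on that list and was chosen in the same way, had one of 0.73 (SE 0.20, adjusted p 0.102). Dnajb9, a chaperone cofactor of the endoplasmic reticulum, averaged 10.88 ± 0.11 at day 5 and 10.24 ± 0.08 at day 4 (SD, n = 3 each), was 1.55-fold higher (adjusted p 0.0144) and was the 1 of 11 unfolded protein response genes to pass. It lost the call without day 4 repeat 1 or 3 or day 5 repeat 2 (adjusted p 0.0539 to 0.0947).

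Among oocyte and cell cycle genes none passed in the limma fit, although most had a change below 0. Over all genes tested, 50.6% had a change below 0, 5.53% were lower at an unadjusted p of 0.05, and the median was -0.0037. None of the 23 oocyte genes passed, 18 had a change below 0, the median was -0.37 and 9 had an unadjusted p under 0.05, all lower, against 591 of 10688 genes lower at that p. Gdf9, the oocyte growth factor, measured 12.15, 12.48 and 12.42 at day 5, against 13.15, 12.65 and 12.72 at day 4. Its arrays did not overlap, but the log2 change of -0.49 (SE 0.17) had an adjusted p of 0.258. Nlrp14, a maternal gene of the oocyte, averaged 12.22 ± 0.20 at day 5 and 12.69 ± 0.17 at day 4 (SD, n = 3 each; adjusted p 0.216). The summed linear signal of the oocyte genes was 33166 to 38932 on the day 5 arrays, against 37887 to 49796 on the day 4 arrays, ranges that overlap. In 25 DNA replication genes the median was -0.19, 21 had a change below 0 and none passed (2 at an unadjusted p of 0.05). Their summed linear signal was 20726 to 22142 on the day 5 arrays, against 23778 to 25695 on the day 4 arrays, with no overlap. In 19 mitosis genes the median was -0.16, 17 had a change below 0 and none passed (3 at an unadjusted p of 0.05). Mcm4, of the replicative helicase, averaged 11.92 ± 0.10 at day 5 and 12.09 ± 0.05 at day 4 (adjusted p 0.683), and Cenpa, a centromeric histone, 12.55 ± 0.07 at day 5 and 12.68 ± 0.17 at day 4 (adjusted p 0.889).

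**Figure D4:**
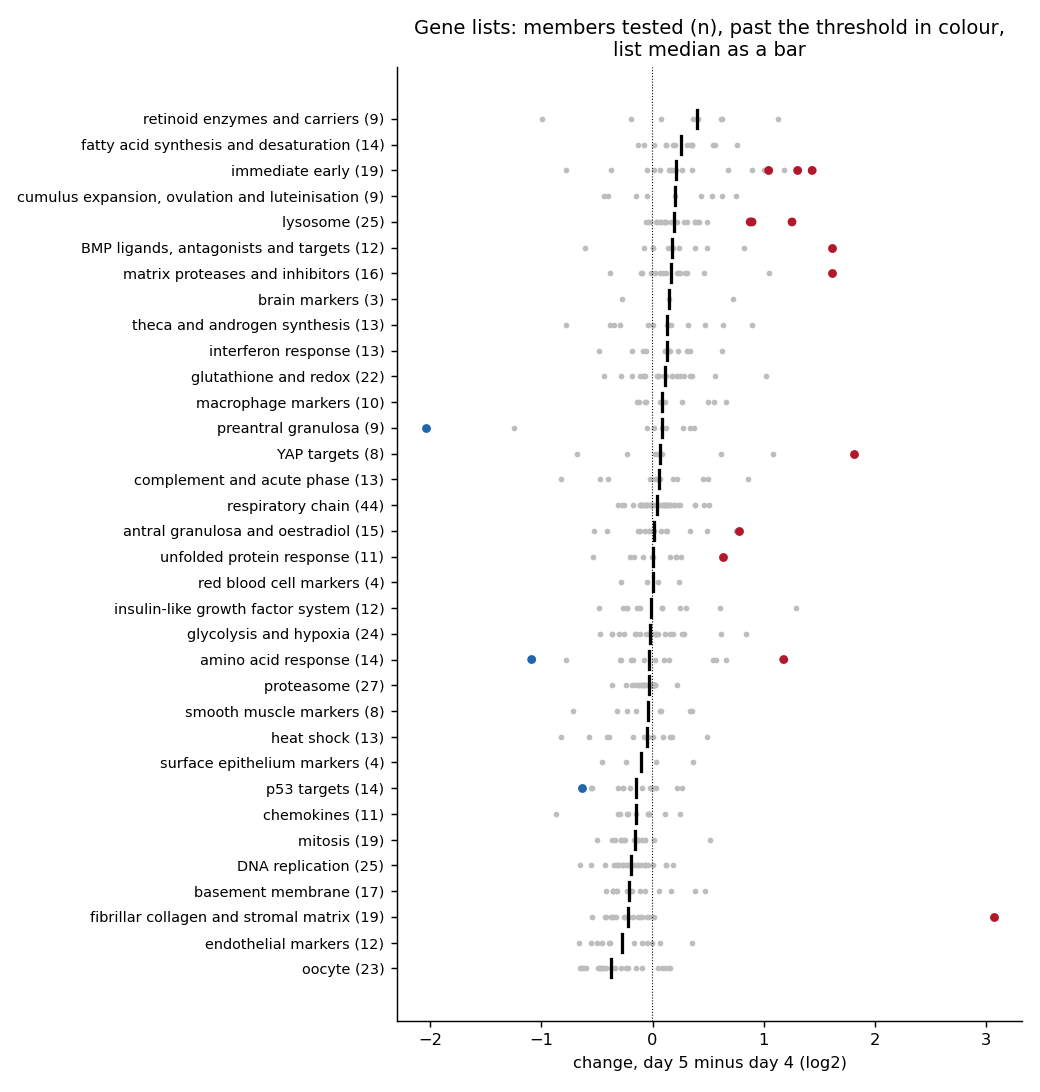
Change in each tested member of 34 of the 35 gene lists, day 5 minus day 4 (log2, x axis), with lists ordered by their median (black bar), the number of members tested in brackets and the median of all genes dotted; members past the threshold are red where higher at day 5 and blue where lower. List medians run from -0.37 for oocyte genes to 0.40 for retinoid genes, and single members such as Comp, at 3.07, lie far from the median of their list.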

How the data were processed

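The follicle RNA was labelled and hybridised to 1-colour Illumina mouse bead arrays. Per the file headers, the deposited tables hold for each of 25697 probes an average signal intensity, a detection p-value, a count of beads and their standard error; a further deposited table holds the authors' log2 values for 23286 probes, whose normalization is not given in the sources used here. Of its follicle columns, 20 of 20 lay closest to their own array (lowest r 0.9988 over 2620 bright probes).

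Signals were background-corrected from the detection p-values, given an offset of 16, quantile-normalized and put on the log2 scale (neqc, limma 3.58.1, R 4.3.3) over 20 follicle arrays. The 14490 probes detected (p under 0.05) on 3 or more arrays were kept, the probe with the highest mean stood for a gene, and symbols were updated through RefSeq. A fit with 1 mean a day tested 10688 genes with lmFit and eBayes, Benjamini-Hochberg adjusted, at 0.05. The fit was tested on simulated data. After each gene's mean of the day was subtracted, same-numbered repeats of days 5 and 4 correlated at -0.35 to 0.03, so numbers were not taken as pairs. Over all cultured days, 30 same-numbered pairs correlated at -0.42 to 0.56, 12 of them over 0.1. Any likeness shared between arrays of different days was not modelled. The number of arrays limits the precision.

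Genes were named by rule: the 15 largest called rises and falls without overlap, detected on the whole higher day, 5 each way against the mean of days 4 and 6, and up to 4 called and 2 uncalled members of each of 35 lists. Others are said to be chosen after their values were seen. The comparisons, lists and genes were chosen with earlier results of these data known, and days 6 and 8 against day 2 was added after the data were seen. Alternatives covered the arrays fitted, background, normalization, filters, probes, spread and single arrays. The 5 brain arrays were not used. The result of 1 called gene and of the list that holds it is not reported here.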

Additional observations from a re-analysis of the deposited data

How the results depend on the processing

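With 3 arrays a day, the number of genes called moved with the setting. For day 5 against day 4, 102 genes became 17 on the 6 arrays alone, 47 on 15 arrays of days 2 to 8, 50 with array medians aligned, 22 with the 6 arrays normalized alone and 200 with array weights; all 17, 47 and 22 were among the 102, as were 49 of the 50 and 94 of the 200. With the repeat number as a replicate block it was 44 on 15 arrays and 1 on 6 arrays. The numbers were not found to pair the arrays. With each gene's mean of the day subtracted, 0 of 3 day 5 repeats lay closest to the day 4 repeat of the same number. Leaving out single arrays gave 51 to 113. For day 5 against the mean of days 4 and 6, 28 became 11 on 15 arrays, 9 with the replicate block, 11 with medians aligned and 47 with array weights, and 16 to 36 without single arrays. For day 6 against day 5, 143 became 38 on 15 arrays, 23 with the replicate block, 85 with medians aligned (67 higher and 18 lower, against 76 and 67) and 246 with array weights, and 52 to 218 without single arrays. For days 6 and 8 against day 2, 2814 became 4302 with array weights and 2076 to 3045 without single arrays; with medians aligned the split was 867 higher and 1668 lower, against 1267 and 1547. The cause was not tested. Of the called genes 1 reversed under the settings run: Dkkl1, day 5 against day 4, had -0.1342 (adjusted p 0.93854) with no filter on dim probes. Genes near background have folds that are lower bounds only, and these bounds hold only for the signals as normalised here.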

Other observations

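Further genes that passed between day 5 and day 4 were chosen here after their values were seen. Tuft1, an adapter protein first known from enamel, averaged 10.59 ± 0.08 at day 5 and 9.67 ± 0.27 at day 4 (SD, n = 3 each), and was 1.89-fold higher (limma, adjusted p 0.00167). Elmo1, a partner of DOCK proteins in Rac activation, averaged 9.95 ± 0.11 at day 5 and 9.12 ± 0.14 at day 4, a fold of 1.78 (adjusted p 0.00609); its 4 other probes were above background on at most 3 of the 6 arrays. Efl1, a GTPase of 60S ribosome maturation, averaged 8.69 ± 0.17 at day 5 and 9.66 ± 0.20 at day 4, and was 1.96-fold lower (adjusted p 0.000698). Bbs7, a subunit of the BBSome of cilia, averaged 8.21 ± 0.13 at day 5 and 8.96 ± 0.14 at day 4, and was 1.68-fold lower (adjusted p 0.00252). None of these 4 genes lost its call without any 1 of the 6 arrays.

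A large difference that did not pass was that of Pdrg1, with a log2 change of 2.90 (adjusted p 0.0625) and a standard deviation of 2.62 over the day 4 arrays, of which 1 was above background.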
